A study of Mus musculus with 8 samples.

Results

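A set of 10 genes of the blood vessel wall and of its growth signals is described here across the old tibialis anterior (TA) muscle of WT and C2-/- mice. The 10 genes, Pecam1, Cdh5, Vwf, Kdr, Flt1, Tek, Tie1, Vegfa, Vegfb and Angpt1, were taken by their symbols from a table of 16686 genes, and all 10 were among the 12542 genes with enough counts to be tested. Poly(A) RNA of whole TA muscle, a fast-twitch muscle of the shin, was sequenced from 4 WT and 4 C2-/- male mice, with 1 library per mouse. The C2-/- mice lack Mybpc2, the gene of fast myosin binding protein-C, through germline replacement of its coding exons by a neomycin cassette with LoxP sites, so every cell type carries the deletion, the endothelium included. Mybpc2 itself is a gene of fast muscle fibres. Both groups were on the FVBN strain and received no treatment. The labels give each mouse an age of 22 months, while another passage of the labels names a younger age for the mice of the study.

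Endothelial cells line all vessels, and in muscle most of them belong to the capillaries that run along the fibres. VEGF-A is released by muscle fibres and other cells when oxygen is short and acts on endothelial cells through VEGFR2 (Kdr), while VEGFR1 (Flt1) binds VEGF-A and VEGF-B and limits how much VEGF-A reaches VEGFR2. Angiopoietin-1 comes from the cells around the vessel and keeps it stable through the receptor Tie2 (Tek), which works together with its relative Tie1. Both pathways govern the growth and upkeep of muscle capillaries.

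For none of the 10 genes was a difference between the genotypes found. In each of them the values of the WT and C2-/- mice overlapped, 5 of 10 were higher and 5 lower in C2-/-, and the log2 fold changes (C2-/- over WT) lay between −0.18 for Pecam1 and 0.23 for Angpt1, with a median of −0.03. A gene was called with an adjusted p under 0.05 and a change above 1.5-fold in edgeR's quasi-likelihood test. By this rule 0 of the 10 genes were called, against 4 of 12542 tested genes (0.0319%), with 0.0239% higher and 0.00797% lower in C2-/-. At any p, 0 of the 10 had a fold change above 1.5, against 7.3% of the tested genes. At an unadjusted p under 0.05 the count was again 0 of 10, against 5.29% of the tested genes, and DESeq2 and limma-voom gave 0 of 10 at both thresholds. Groups without overlap were found for 3.37% of the tested genes, and 45.8% of them were higher in C2-/-, with a median log2 fold change of −0.02. The targeted gene was low in every C2-/- mouse. Mybpc2 was at 4963, 5447, 5099 and 7390 CPM (counts scaled to library size) in WT mice 1 to 4, and at 4.35, 4.02, 38.3 and 3.85 CPM in C2-/- mice 1 to 4, with a log2 fold change of −8.82 ± 0.94 (SE, n = 4 per group, edgeR adjusted p = 0.0075).

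**Figure D1:**
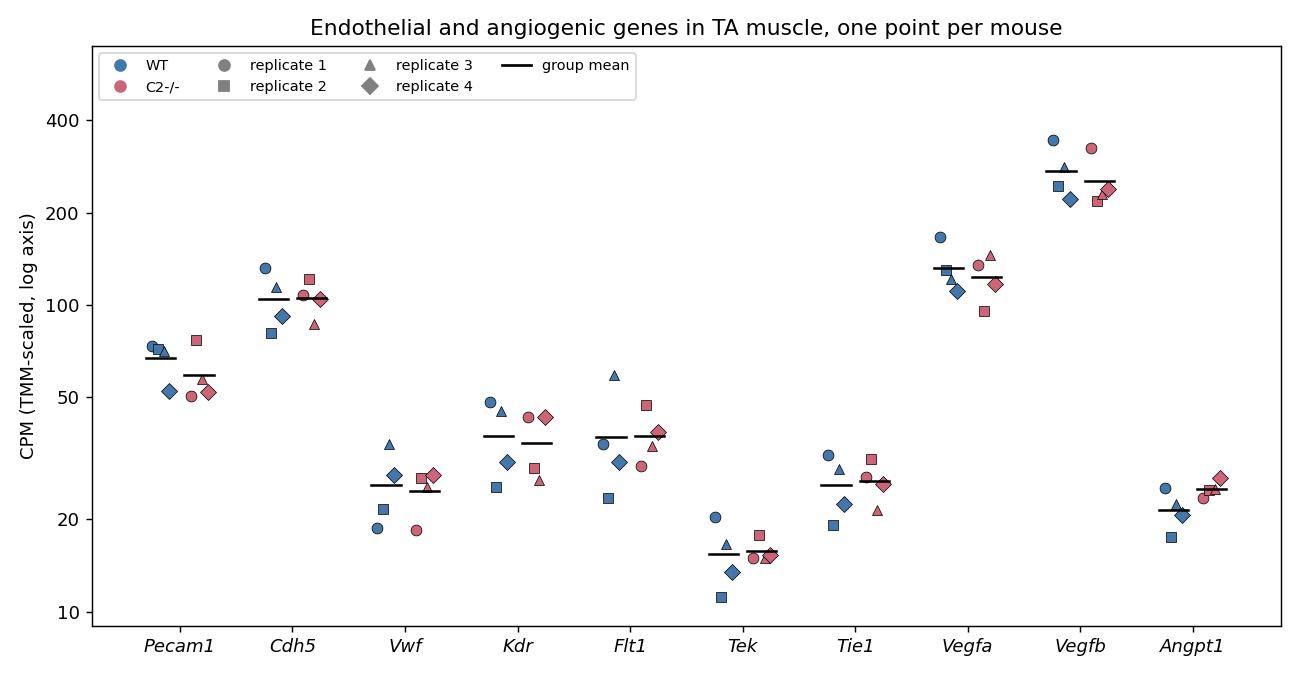
Each point is the level of 1 of the 10 genes in 1 mouse, in CPM after TMM scaling, with the mean of the 4 WT and the 4 C2-/- mice. The groups overlap in all 10 genes. In Cdh5, Kdr, Flt1, Tek, Tie1 and Angpt1 the lowest of the 8 points is the same mouse, WT 2.

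CPM values are counts scaled to the library and, by the TMM method, to its composition. They compare mice for 1 gene and do not compare genes with each other. With total counts between 25425993 and 29747692 per mouse, the 10 genes were read with 305 (Tek) to 8938 (Vegfb) counts in a mouse, well over the 3 counts (0.101 to 0.118 CPM) taken as the smallest level that can be shown, a floor that covers counting error only. Correlations between the libraries lay between 0.951 and 0.983, and WT 2 had the lowest median correlation with the others (0.9585, against 0.9736 to 0.9815). The p-values measure the spread between these mice. Because RNA came from whole muscle, fewer cells of a type and less RNA per cell cannot be told apart. The defining genes of both endothelium and fast fibres were read in all 8 mice.

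The first 3 genes are markers of the endothelial cell. Pecam1 (gene ID 18613, chr11:106654213-106750623, minus strand, GRCm38) codes for CD31, an adhesion protein of the junctions between endothelial cells. It was at 73.5, 71.9, 70.6 and 52.3 CPM in WT 1 to 4, and at 50.4, 76.6, 57.4 and 52.1 CPM in C2-/- 1 to 4. The WT mice were close to each other apart from WT 4, which lay among the 3 lower C2-/- mice, and the highest value of all was in C2-/- 2. The means were 67.1 ± 9.94 CPM in WT and 59.1 ± 12.0 CPM in C2-/- (SD, n = 4 each), a log2 fold change of −0.18 ± 0.16 (SE, 95% interval −0.55 to 0.18, edgeR adjusted p = 0.968).

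Cdh5 (gene ID 12562, chr8:104101613-104144504, plus strand) codes for VE-cadherin, which holds endothelial cells together. Its level was 132, 80.9, 114 and 92.3 CPM in WT 1 to 4, and 108, 121, 86.8 and 105 CPM in C2-/- 1 to 4. Both the highest and the lowest mouse were WT, and the 4 C2-/- values lay between them. The means were 105 ± 22.9 CPM in WT and 105 ± 14.2 CPM in C2-/-, with a log2 fold change of 0.00 ± 0.17 (SE, 95% interval −0.37 to 0.38, edgeR adjusted p = 0.999). The fold interval, 0.775 to 1.30, leaves room for changes of that size in either direction.

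Vwf (gene ID 22371, chr6:125552935-125686679, plus strand) codes for von Willebrand factor, which binds platelets at injured vessels and is stored in endothelial cells and in platelets. WT 1 to 4 had 18.8, 21.7, 35.2 and 28.0 CPM, and C2-/- 1 to 4 had 18.5, 27.2, 25.4 and 27.8 CPM. The highest mouse was WT 3, and mouse 1 of each genotype was the lowest of its group. The means were 25.9 ± 7.31 and 24.7 ± 4.31 CPM in WT and C2-/-, and the log2 fold change was −0.07 ± 0.21 (SE, 95% interval −0.52 to 0.39, edgeR adjusted p = 0.989).

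The receptors follow. Kdr (gene ID 16542, chr5:75932527-75979207, minus strand) and Flt1 (gene ID 14254, chr5:147561606-147726005, minus strand) code for VEGFR2 and VEGFR1, and Tek (gene ID 21687, chr4:94739289-94874976, plus strand) and Tie1 (gene ID 21846, chr4:118471190-118492852, minus strand) for the Tie receptors. The 4 receptor genes were all lowest in the same mouse, WT 2, as were Cdh5 and Angpt1. The sequence around the start of each receptor gene is shown, and its relation to these levels was not tested. Each run holds 250 bases before and 50 after the transcript start of the RefSeq annotation of GRCm38.p6, read 5′ to 3′ on the strand of the gene, and covers chr5:75978406-75978705 (minus) for Kdr, chr5:147725962-147726261 (minus) for Flt1, chr4:94739039-94739338 (plus) for Tek and chr4:118489800-118490099 (minus) for Tie1. Capitals mark GGAA or, for the other strand, TTCC, the core letters bound by ETS transcription factors, a family known for its work at endothelial promoters.
Kdr: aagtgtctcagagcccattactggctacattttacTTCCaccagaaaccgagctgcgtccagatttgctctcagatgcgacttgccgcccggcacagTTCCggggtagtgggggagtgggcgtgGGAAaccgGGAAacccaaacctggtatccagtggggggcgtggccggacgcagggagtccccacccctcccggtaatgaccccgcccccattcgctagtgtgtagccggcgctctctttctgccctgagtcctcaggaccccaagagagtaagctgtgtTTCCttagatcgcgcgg
Flt1: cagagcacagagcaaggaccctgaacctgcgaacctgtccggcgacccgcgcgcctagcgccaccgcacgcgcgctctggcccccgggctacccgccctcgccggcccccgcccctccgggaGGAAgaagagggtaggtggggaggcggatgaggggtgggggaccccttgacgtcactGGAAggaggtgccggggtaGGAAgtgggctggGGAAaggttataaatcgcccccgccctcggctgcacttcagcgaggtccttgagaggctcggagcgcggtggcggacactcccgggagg
Tek: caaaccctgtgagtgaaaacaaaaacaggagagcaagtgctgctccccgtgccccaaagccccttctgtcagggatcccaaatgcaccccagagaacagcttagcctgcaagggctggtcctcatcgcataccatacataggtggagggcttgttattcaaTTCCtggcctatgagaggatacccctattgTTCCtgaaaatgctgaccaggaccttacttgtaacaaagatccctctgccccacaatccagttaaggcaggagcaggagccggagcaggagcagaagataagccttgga
Tie1: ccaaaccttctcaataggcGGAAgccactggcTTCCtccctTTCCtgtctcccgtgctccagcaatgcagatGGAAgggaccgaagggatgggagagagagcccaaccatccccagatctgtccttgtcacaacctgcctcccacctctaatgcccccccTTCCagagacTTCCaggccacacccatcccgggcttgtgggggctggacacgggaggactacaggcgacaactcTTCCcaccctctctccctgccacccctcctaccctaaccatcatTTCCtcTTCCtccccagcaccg
The core was found 5 times in the window of Kdr, 4 times in that of Flt1, 2 times in that of Tek and 9 times in that of Tie1, the bases after the start included. The windows of Kdr and Tie1 lie inside the gene intervals of the deposited table, which begin further upstream. So short a word is common. Of 27025 promoters of this length 95.9% held it at least once on either strand, with a median of 3. A count as high as that of Tie1 was found in 1.63% of promoters, and one as high as those of Kdr, Flt1 and Tek in 28.7%, 46.3% and 84.7%. A match describes the letters and is not a binding site. RefSeq windows were at hand for 6 of the 10 genes.

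Kdr, the main signalling receptor for VEGF-A, was at 48.4, 25.5, 45.1 and 30.7 CPM in WT 1 to 4 and at 43.0, 29.5, 26.9 and 43.1 CPM in C2-/- 1 to 4. In each genotype 2 mice lay high and the other 2 low, so the spread within a genotype was larger than the distance between the means, 37.5 ± 11.1 CPM in WT and 35.6 ± 8.67 CPM in C2-/-. The log2 fold change was −0.07 ± 0.23 (SE, 95% interval −0.59 to 0.45, edgeR adjusted p = 0.989).

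Flt1, whose product holds back VEGF-A, was at 35.1, 23.6, 59.1 and 30.7 CPM in WT 1 to 4 and at 29.9, 47.1, 34.7 and 38.5 CPM in C2-/- 1 to 4. WT 2 and WT 3 were the lowest and the highest of the 8 mice, 2.51-fold apart, the widest range of the 10 genes. The means were 37.1 ± 15.4 and 37.5 ± 7.26 CPM, and the log2 fold change was 0.02 ± 0.26 (SE, 95% interval −0.56 to 0.59, edgeR adjusted p = 0.998). A change of up to 1.51-fold upward or to 0.679-fold downward lies within this interval. The log2 ratio of Kdr to Flt1 was 0.0475 ± 0.352 in WT and −0.0888 ± 0.536 in C2-/- (SD, n = 4, two-sided exact permutation p = 0.771, adjusted p = 1.0 over 3 ratios, where the smallest p that 4 against 4 mice allow is 0.0286). The direction of its difference turned when WT 1 or C2-/- 2 was left out, to 0.00243 and 0.0592. This ratio and the 2 below come from counts without adjustment for transcript length. They compare mice and do not give the level of one gene relative to the other.

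Tek was at 20.4, 11.1, 16.6 and 13.5 CPM in WT 1 to 4 and at 14.9, 17.8, 15.0 and 15.3 CPM in C2-/- 1 to 4. The C2-/- mice lay closer together than the WT mice and inside their range, with means of 15.4 ± 4.04 CPM in WT and 15.7 ± 1.36 CPM in C2-/-. The log2 fold change was 0.03 ± 0.18 (SE, 95% interval −0.37 to 0.43, edgeR adjusted p = 0.997).

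Tie1, an orphan relative of Tie2 that takes part in its signalling, was at 32.5, 19.1, 29.2 and 22.5 CPM in WT 1 to 4 and at 27.5, 31.5, 21.5 and 26.1 CPM in C2-/- 1 to 4. Again WT 1 was highest and WT 2 lowest, with all C2-/- mice between. The means were 25.9 ± 6.12 and 26.7 ± 4.11 CPM, with a log2 fold change of 0.04 ± 0.18 (SE, 95% interval −0.36 to 0.45, edgeR adjusted p = 0.996). The log2 ratio of Tek to Tie1 was −0.75 ± 0.0617 in WT and −0.748 ± 0.157 in C2-/- (difference 0.00169, two-sided exact permutation p = 1.0). Among the WT mice the ratio kept between −0.812 and −0.669 although both genes differed by over 1.5-fold between WT 1 and WT 2. Left-out mice turned the direction of the small difference in the ratio (−0.0736 without C2-/- 3).

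The ligand genes close the set. Vegfa (gene ID 22339, chr17:46016993-46032377, minus strand) was at 166, 130, 121 and 111 CPM in WT 1 to 4 and at 135, 95.4, 146 and 117 CPM in C2-/- 1 to 4. WT 1 was the highest mouse and C2-/- 2 the lowest, and the other 6 mice were mixed. The means were 132 ± 24.0 CPM in WT and 123 ± 22.1 CPM in C2-/-, a log2 fold change of −0.10 ± 0.17 (SE, 95% interval −0.47 to 0.27, edgeR adjusted p = 0.983).

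Vegfb (gene ID 22340, chr19:6982472-6987651, minus strand), a VEGFR1 ligand made in heart and skeletal muscle, was at 344, 244, 282 and 222 CPM in WT 1 to 4 and at 325, 218, 230 and 239 CPM in C2-/- 1 to 4. WT 1 was highest and C2-/- 2 lowest, the same mice as for Vegfa. The means were 273 ± 53.7 and 253 ± 48.5 CPM, with a log2 fold change of −0.11 ± 0.17 (SE, 95% interval −0.49 to 0.27, edgeR adjusted p = 0.983). The log2 ratio of Vegfa to Vegfb was −1.04 ± 0.131 in WT and −1.04 ± 0.27 in C2-/- (difference 0.00537, two-sided exact permutation p = 1.0). Without C2-/- 3 this difference was −0.12.

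Angpt1 (gene ID 11600, chr15:42424667-42704616, plus strand) had the largest difference and the smallest p of the 10 genes, and it did not pass the test. It was at 25.29, 17.57, 22.47 and 20.66 CPM in WT 1 to 4 and at 23.49, 25.02, 25.03 and 27.20 CPM in C2-/- 1 to 4. All C2-/- mice lay above 3 of the WT mice, and WT 1 lay above 3 of the C2-/- mice, so that this mouse alone made the groups overlap. The means were 21.5 ± 3.24 CPM in WT and 25.2 ± 1.53 CPM in C2-/-, a log2 fold change of 0.23 ± 0.13 (SE, 95% interval −0.06 to 0.51, unadjusted p = 0.105, edgeR adjusted p = 0.968). Without WT 1 the log2 fold change was 0.32, with an unadjusted p of 0.0351 and an edgeR adjusted p of 0.853.

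**Figure D2:**
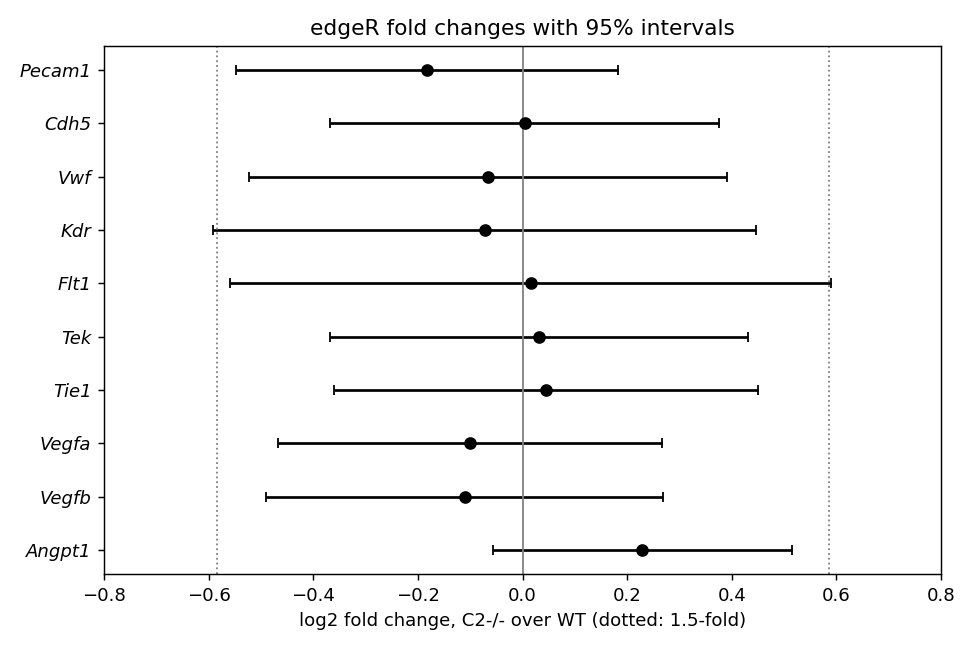
Points give the log2 fold change of each of the 10 genes (C2-/- over WT, edgeR), and bars its 95% interval. Every interval holds 0, from Pecam1 at −0.18 to Angpt1 at 0.23.

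More of the variation ran between mice than between genotypes, and some of it was shared within the set. The mean of the 7 endothelial genes (all but the ligands), each centred on its mean log2 CPM over the 8 mice, was 0.19, −0.33, 0.31 and −0.15 in WT 1 to 4 and −0.09, 0.18, −0.16 and 0.04 in C2-/- 1 to 4. WT 3 was the highest and WT 2 the lowest mouse, and the genotypes overlapped. Over the 4 mice of a genotype this mean had an SD of 0.298 in WT and 0.149 in C2-/-. Of the 7 genes, Cdh5, Kdr, Flt1, Tek and Tie1 were lowest in WT 2, and all of these but Flt1 were highest in WT 1. Pecam1 and Vwf did not follow them. In WT 2 Pecam1 lay above its 8-mouse mean, by 0.21, and in WT 1 Vwf lay below it, at −0.40. The mean of the 5 genes alone was 0.30, −0.47, 0.30 and −0.20 in WT 1 to 4 and 0.02, 0.17, −0.20 and 0.08 in C2-/- 1 to 4. WT 1 and WT 3 were high, WT 2 was lowest, and WT 4 and C2-/- 3 were low to the same degree. These 5 genes were picked after their values had been seen, and no test was run on them. WT 2 was the lowest mouse for 6 of the 10 genes and WT 1 the highest for 6 of 10, while WT 4 lay below the 8-mouse mean for 9 of 10.

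**Figure D3:**
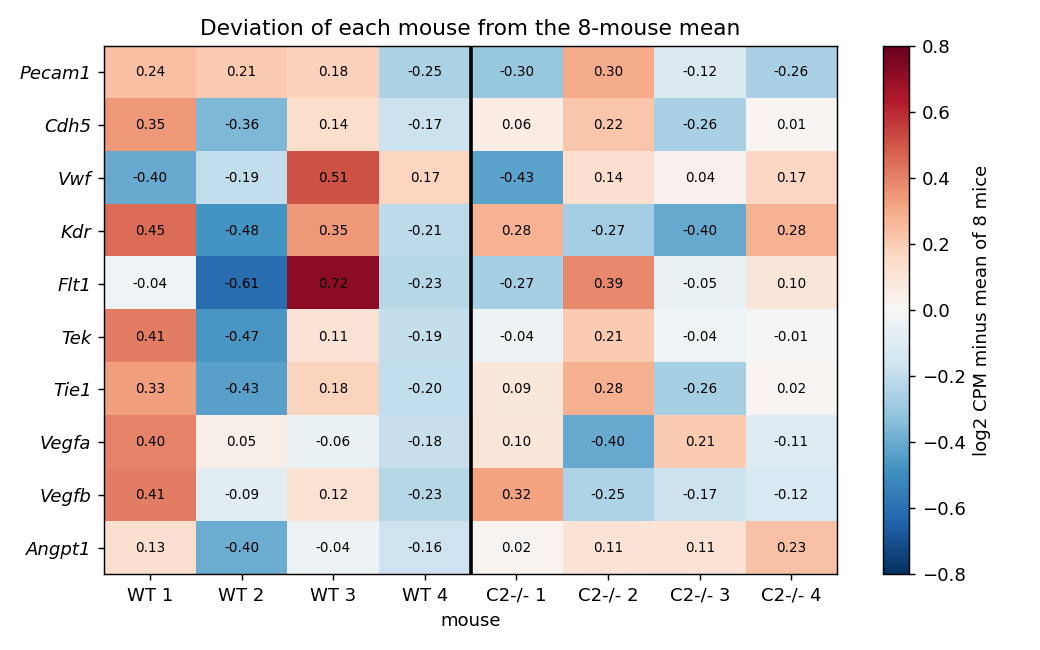
Each cell gives the log2 CPM of a gene (row) in a mouse (column) less the mean of that gene over the 8 mice. WT 2 is low for Cdh5, Kdr, Flt1, Tek and Tie1, whose mean deviation there was −0.47, but not for Pecam1, at 0.21.

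A list of 36 other genes of endothelial cells, such as Emcn, Cldn5, Esam, Egfl7 and Plvap, did not repeat the order of the mice. WT 2 was the lowest mouse for 4 of these 36 genes and the highest for 11, and C2-/- 3 was the lowest for 18. Their mean centred level was 0.24 in WT 1 and −0.27 in C2-/- 3. So the mouse with the lowest receptor genes was not the lowest in most other endothelial genes. WT 2 was also the lowest mouse for 7 of 11 markers of pericytes and vascular smooth muscle, with a mean centred level of −0.45. Without WT 2, 1 of the 10 genes was higher in C2-/- and 9 were lower, and again none was called. This was not particular to WT 2. Without WT 4 the count higher in C2-/- was also 1, and without WT 1 or WT 3 it was 7.

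Compared with other genes of a like mean level, the receptor genes varied widely inside the genotypes. The SD of log2 CPM within a genotype was 0.439 for Flt1 and 0.402 for Kdr, against a median of 0.195 for genes within 0.5 log2 units of their level, of which 92.3% and 90.1% had a smaller SD. Vwf, at 0.343, was above 85.0% of its like genes. Angpt1 was the steadiest of the 10, with an SD of 0.167, and 32.6% of its like genes had a smaller one. The other 6 genes had an SD between 0.254 and 0.294. Their SDs exceeded those of 69.3% (Vegfb) to 78.4% (Tie1) of like genes.

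Levels of different genes were compared on the deposited TPM scale, which divides by transcript length. Vegfb led with a median of 378.7 TPM over the 8 mice (337 to 518 TPM), followed by Vegfa with 70.7 TPM and a median ratio of Vegfb to Vegfa of 5.61. Cdh5 (49.9 TPM) and Pecam1 (35.0 TPM) came next, and each stood above the following gene in 7 or 8 of 8 mice. Tie1 (12.9 TPM), Kdr (12.4 TPM), Angpt1 (11.0 TPM) and Flt1 (10.1 TPM) were close to each other. Tie1 was above Kdr in 4 of 8 mice, Kdr above Angpt1 in 5 and Angpt1 above Flt1 in 6, so their order was within the spread between mice. Flt1 was above Tek (6.46 TPM) in 8 of 8 mice, and Tek above Vwf (5.53 TPM) in 6 of 8. Among the receptors, the ligand-binding VEGF receptors and Tie1 were thus at similar levels, and Tek was lower.

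**Figure D4:**
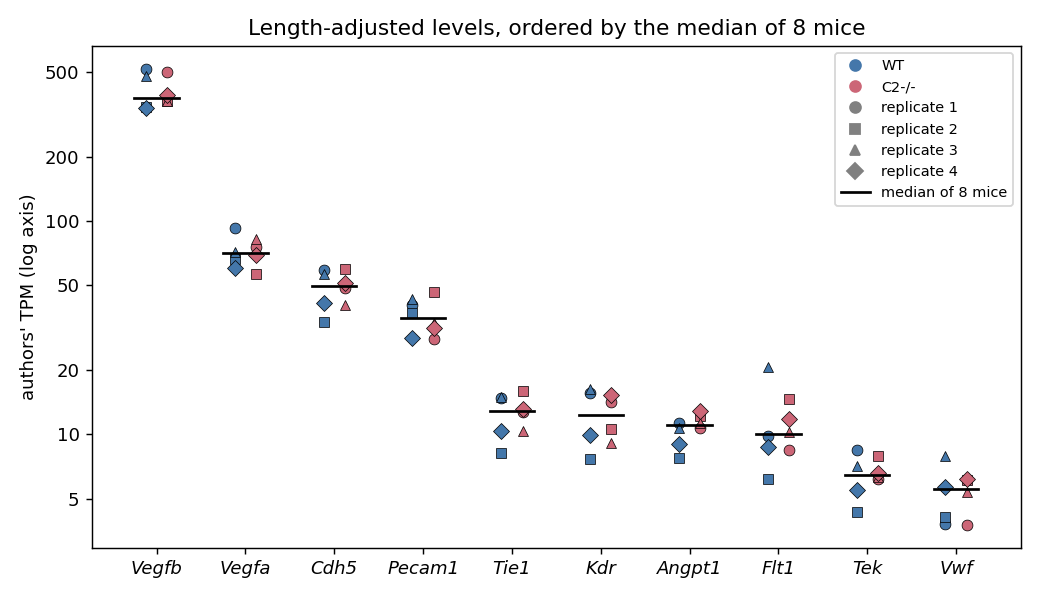
Each point is the TPM of a gene in 1 mouse on a log axis, and the genes are ordered by their median. Vegfb lies above Vegfa in all 8 mice, and the points of Tie1, Kdr, Angpt1 and Flt1 cover each other.

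The wider vascular programme was read from 6 further lists, with 85 tested genes among their 88. In C2-/-, 37 had a higher and 48 a lower level, 7 and 2 of them at an unadjusted p under 0.05, and 0 were called. The shares of all tested genes at that p were 3.38% higher and 1.91% lower. Groups without overlap were found for 3 of the 85 genes, against 3.37% of all tested genes. Vegfc and Cspg4 were higher and Acvrl1 was lower in C2-/-. For Acvrl1 the log2 fold change was −0.22 ± 0.11 (SE, edgeR adjusted p = 0.968). The median log2 fold change of the 85 genes was −0.06. Of the 36 endothelial genes above, 10 were higher and 26 lower with a median of −0.11. Calcrl, a receptor for adrenomedullin, was the 1 gene of them at an unadjusted p under 0.05, with a log2 fold change of −0.41 ± 0.17 (SE, edgeR adjusted p = 0.918). The lipase anchor of capillaries, Gpihbp1, had −0.46 ± 0.21 (adjusted p = 0.943). Rgcc had −0.62 ± 0.31 (adjusted p = 0.968), with WT 2 at 131 CPM and the other WT mice at 45.3 to 57.6 CPM.

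The 10 tested genes of further VEGF and angiopoietin family members and co-receptors had a median of −0.12, with 4 higher and 6 lower. Aplnr, the apelin receptor of sprouting endothelium, was at 8.67, 1.75, 4.52 and 6.55 CPM in WT 1 to 4 and at 16.0, 12.4, 4.82 and 16.2 CPM in C2-/- 1 to 4. C2-/- 3 lay among the WT mice and the other C2-/- mice above all of them, with a log2 fold change of 1.20 ± 0.47 (SE, unadjusted p = 0.0265, edgeR adjusted p = 0.882). The lymphatic ligand Vegfc did not overlap between the groups (log2 fold change 0.50 ± 0.24, adjusted p = 0.968). Angpt2, the antagonist of angiopoietin-1 at Tie2, had −0.65 ± 0.35 (adjusted p = 0.968). Vegfd, chosen after its values were seen, stood at 47.8 CPM in WT 2 and between 3.40 and 6.45 CPM in the other 7 mice.

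Of 9 genes of oxygen sensing, 3 were higher and 6 lower, with a median of −0.04 and none at an unadjusted p under 0.05. Hif3a and Egln3, both known to rise when oxygen is short, had −0.87 ± 0.40 and −0.83 ± 0.44 (edgeR adjusted p = 0.943 and 0.968). Both overlapped between the groups. Egln3 was at 134 and 214 CPM in WT 1 and WT 2 and at 45.4 to 89.0 CPM in all other mice. Under the alternatives its log2 fold change ran from −1.07 to −0.17. Arnt, the common partner of the HIF proteins, had −0.18 ± 0.17 (edgeR adjusted p = 0.968). The 9 Notch genes of vessels had a median of −0.10, with 4 higher and 5 lower and none at an unadjusted p under 0.05. Their smallest p-values belonged to the ligand Jag1 (0.30 ± 0.16), the endothelial receptor Notch4 (−0.46 ± 0.25) and the Notch target Hey1 (−0.41 ± 0.29), each with an edgeR adjusted p of 0.968.

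Of 10 tested angiogenic and angiostatic factors outside these families, 6 were higher and 4 lower with a median of 0.17, and 5 had an unadjusted p under 0.05, the highest share of the lists. Serpinf1, which codes for the angiogenesis inhibitor PEDF, had a log2 fold change of 0.68 ± 0.21 (SE, edgeR adjusted p = 0.732). Thbs2, the inhibitor thrombospondin-2, had 0.88 ± 0.28 (adjusted p = 0.755), and Col18a1, whose collagen is the source of endostatin, had 0.58 ± 0.22 (adjusted p = 0.852). Ang, the ribonuclease angiogenin, had 1.22 ± 0.43 (adjusted p = 0.826), and Vash1, the endothelial inhibitor vasohibin-1, had −0.78 ± 0.28 (adjusted p = 0.849). None of the 5 was past the adjusted threshold. Serpinf1, Thbs2 and Col18a1 are also made by fibroblasts, and 5 of 5 fibro-adipogenic markers were higher in C2-/-. Of them, 2 (Col1a1 and Dcn) had an unadjusted p under 0.05 and 3 (with Lum) did not overlap between the groups. Of all tested genes 45.8% were higher, 5.29% had such a p and 3.37% did not overlap. The summed level of the 5 markers was 283 to 380 CPM in WT and 419 to 511 CPM in C2-/-. Its largest part was Dcn, at 185 to 262 CPM in WT and 270 to 317 CPM in C2-/-. Col1a1 had a log2 fold change of 1.30 ± 0.35 (edgeR adjusted p = 0.608, DESeq2 adjusted p = 0.0405) and Dcn 0.32 ± 0.13 (edgeR adjusted p = 0.882). The part of fibro-adipogenic cells in the values of the angiostatic genes was not tested.

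Of 11 markers of pericytes and vascular smooth muscle, which are among the cells that make angiopoietin-1, 10 were higher in C2-/- and 1 lower (Higd1b, −0.44), with a median of 0.28. Cspg4, the pericyte proteoglycan NG2, was at 8.60, 4.30, 9.33 and 9.01 CPM in WT 1 to 4 and at 12.1, 12.5, 13.2 and 12.9 CPM in C2-/- 1 to 4. The groups did not overlap, and WT 2 lay apart from the other WT mice. Its log2 fold change was 0.70 ± 0.22 (SE, unadjusted p = 0.00884, edgeR adjusted p = 0.732). Pdgfrb, the receptor that holds pericytes to the vessel, had 0.33 ± 0.14 (unadjusted p = 0.0443, edgeR adjusted p = 0.922). Rgs5 was at 186, 95.4, 158 and 96.8 CPM in WT 1 to 4 and at 190, 200, 159 and 183 CPM in C2-/- 1 to 4, with 0.45 ± 0.21 (edgeR adjusted p = 0.968). The summed level of the 11 markers was 484 to 675 CPM in WT, lowest in WT 2, and 656 to 737 CPM in C2-/-. The largest part of this sum was Abcc9, at 207 to 331 CPM in WT and 243 to 309 CPM in C2-/-. Its log2 fold change was 0.07 ± 0.17.

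**Figure D5:**
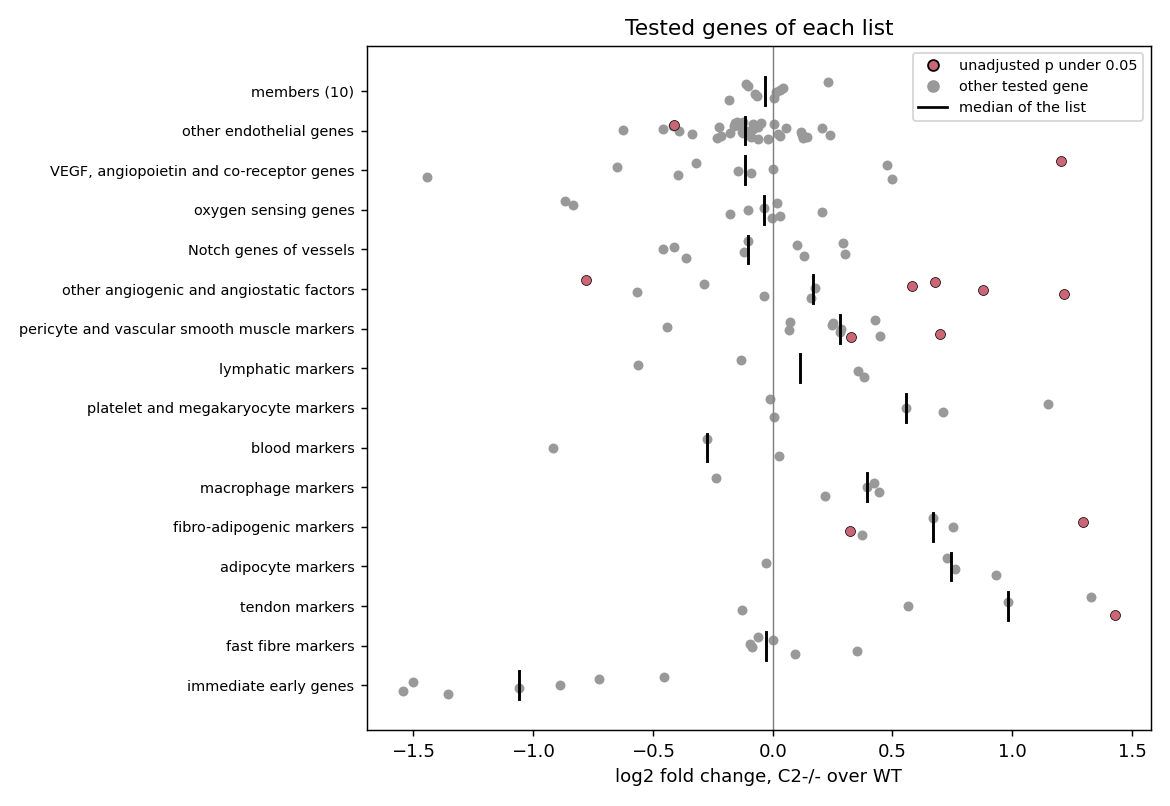
Each point is the log2 fold change (C2-/- over WT) of 1 tested gene in a list, and the bar is the median of the list. Medians lie near 0 for the 10 genes and for the endothelial, oxygen and Notch lists, at 0.17 for the angiogenic and angiostatic factors and at 0.28 for pericyte and smooth muscle markers.

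Other cells of the muscle sample were followed by their markers. Platelets also make Vwf. Their 6 markers summed to 4.48 to 14.1 CPM in WT and 6.02 to 21.3 CPM in C2-/-. The 5 of them that were tested (without Gp1ba) had a median log2 fold change of 0.56, and Gp9 at 1.15 ± 0.88 and Itga2b at 0.56 ± 0.64 overlapped between the groups. The mice with the highest platelet sums, C2-/- 1 and WT 2, had Vwf at 18.5 and 21.7 CPM, in the lower part of its range. Blood markers summed to 483 to 6291 CPM in WT and 907 to 5883 CPM in C2-/-, with Hba-a2 at −0.92 ± 0.93 and Alas2 at −0.27 ± 0.73. Most of this sum was Hba-a1, at 475.5 to 6195 CPM in WT and 893.5 to 5832 CPM in C2-/-. Its log2 fold change was 0.02 ± 0.79. WT 2 had the highest blood sum of all mice and WT 3 the lowest. Of 4 tested lymphatic markers 2 were higher, with Pdpn at 0.36 ± 0.23 and Lyve1 at 0.38 ± 0.40. Macrophage markers had a median of 0.40 (Mrc1 0.42, Csf1r 0.39), adipocyte markers 0.74 (Adipoq 0.93, Cidec 0.73) and tendon markers 0.98 (Tnmd 1.43, Thbs4 0.57). Of the tested genes, 4 of 5 macrophage, 3 of 4 adipocyte and 4 of 5 tendon markers were higher. The lower ones were Cd163 (−0.235), Lep (−0.03) and Scx (−0.13). The fast fibre markers had −0.03 (Myh1 0.35, Ckm −0.09). None of the genes of these lists was called by edgeR, and 1 of them, Tnmd, had an unadjusted p under 0.05. The part of these cells in the values of the 10 genes was not tested.

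Genes of the immediate early response, which are switched on within minutes of a stimulus, split the mice in another way. All 7 of them were lower in C2-/-, with a median log2 fold change of −1.06 (Atf3 −1.50, Nr4a1 −0.45) and 0 at an unadjusted p under 0.05. Fos was at 4.47, 70.8, 7.80 and 245 CPM in WT 1 to 4 and at 1.85, 123, 2.23 and 0.901 CPM in C2-/- 1 to 4, so WT 2, WT 4 and C2-/- 2 were the high mice. WT 2 and WT 4 were also the WT mice with low receptor genes, while C2-/- 2 had the highest Flt1, Tek and Tie1 of its genotype. In C2-/- 3, with low Fos, the mean centred level of Cdh5, Kdr, Flt1, Tek and Tie1 together was −0.20, as in WT 4. Kdr lay at −0.40 in C2-/- 3, while Flt1 and Tek lay near their 8-mouse means, at −0.05 and −0.04. The 5 mice with low Fos, a choice made after the data were seen, were WT 1 and WT 3 against C2-/- 1, 3 and 4. In them 9 of the 10 genes were lower in C2-/-. Flt1, Cdh5, Tie1 and Tek had log2 fold changes of −0.45, −0.30, −0.30 and −0.29. Pecam1 was at −0.43 (unadjusted p = 0.0117, edgeR adjusted p = 1.0), and none of the 10 was called. In the mice left out, the mean of Cdh5, Kdr, Flt1, Tek and Tie1 was −0.47 (WT 2), −0.20 (WT 4) and 0.17 (C2-/- 2). Leaving out these mice thus lowers the fold changes of the 5 genes by itself. For Pecam1, C2-/- 2 was the highest mouse of all. The part of the immediate early response in these values was not tested.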

How the data were processed

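One table of the series was used, with 1 library per mouse. The paper names HISAT for alignment to GRCm38.p6 and featureCounts for counting per gene, and the labels' tool list also names Bowtie2 and DESeq2. Whether counting used the strand is not given in the sources used here. The deposited expected counts were not normalized. Between 5.5% and 6.53% of the values per mouse were not whole, and they were rounded for the count tests. Which tool gave such values was not settled. The TPM values were computed by the authors and were used only to compare genes. The deposited table also holds 8 columns of FPKM per mouse, 6 group averages and 3 columns of the authors' own comparison (fold change, p and q), none of which was used. Usable were 16686 of 16687 rows, those with a gene ID, and 25 symbols damaged by a spreadsheet or duplicated were restored from gene IDs.

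Genotypes were compared with edgeR 4.0.16 in R 4.3.3 (quasi-likelihood test, TMM factors of 0.929 to 1.03, default filter on low counts, Benjamini-Hochberg adjustment over 12542 genes). The 95% intervals come from the log2 fold change and the root of F. Log2 CPM values used a prior count of 2. Ratios of gene pairs were taken from counts with a prior count of 2, without length adjustment, and compared with exact permutation tests (scipy 1.17.1). The alternatives were limma-voom (limma 3.58.1), the method the paper names, that method with weights for sample quality, DESeq2 1.42.0, RLE factors, library totals, other filters, unrounded values, a smaller fold cutoff (log2 of 0.5), a block for the replicate number and fits with 1 mouse left out. The 5 mice with low Fos were added after the data were seen.

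The 10 genes and all gene lists were chosen with earlier results of these data known. Named were the 10 genes, Mybpc2, any called list gene and, in each list, the genes with the smallest p (3 in vascular lists, 2 in others). Col18a1, Vash1, Vegfd, Higd1b, Lum, Fos, Emc10, Acvrl1, Abcc9, Hba-a1, Cd163, Lep and Scx were added once their values had been seen. In the deposited intervals, none of the 10 genes overlaps a gene shorter than 5 Mb, and Tek, Tie1 and Vegfa lie inside a few far longer intervals. Promoters were matched by symbol in RefSeq (GRCm38.p6). The tests were tried on simulated counts.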

Additional observations from a re-analysis of the deposited data

Results flagged for a closer look

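In 100 groups of 4 mice, a mouse far from the other 3 of its genotype was looked for by the ratio of its gap to the whole range. Chance alone picks out about 1 in 20 such groups where the groups are independent, and 9 were found here. The 100 groups are genes read in the same 8 mice, so the 9 cannot be set against that rate. Of the 10 vascular genes, Pecam1 stood low in WT 4 at 52.3 CPM (the other WT mice lay at 70.6 to 73.5 CPM), and Tek stood high in C2-/- 2 at 17.8 CPM (14.9 to 15.3 CPM in the others). Both values lie inside the range of the other genotype. Among the other vascular genes, Rgcc stood high in WT 2 at 131 CPM (45.3 to 57.6 CPM), Hey1 low in WT 4 at 2.75 CPM (5.63 to 5.72 CPM) and Cspg4 low in WT 2 at 4.3 CPM (8.6 to 9.33 CPM).

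Mybpc2, the deleted gene, stood at 38.3 CPM in C2-/- 3 and at 3.85 to 4.35 CPM in the other C2-/- mice. Adipoq, the adipocyte hormone adiponectin, stood low in WT 1 at 0.771 CPM (2.42 to 2.73 CPM). In C2-/- 2, Ckm, the muscle creatine kinase, stood low at 19600 CPM (22200 to 22700 CPM), and the stress factor Atf3 high at 14.0 CPM (2.01 to 3.44 CPM).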

How the results depend on the processing

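None of the 10 genes was called under any of the 18 alternatives. Of 180 values of a gene under an alternative, 153 kept their direction and 27 turned it, all between values below the threshold. Leaving out each mouse in turn gave log2 fold changes between −0.10 and 0.13 for Cdh5, −0.19 and 0.13 for Vwf, −0.21 and 0.0753 for Kdr, −0.14 and 0.34 for Flt1, −0.091 and 0.20 for Tek, −0.0694 and 0.17 for Tie1, −0.19 and 0.0272 for Vegfa, and −0.25 and 0.0203 for Vegfb. Pecam1 stayed between −0.33 and −0.11 and Angpt1 between 0.15 and 0.32. The differences in log2 ratio ranged from −0.341 to 0.0592 for Kdr to Flt1, from −0.0736 to 0.0445 for Tek to Tie1 and from −0.12 to 0.081 for Vegfa to Vegfb. In the 5 mice with low Fos (WT 1 and WT 3 against C2-/- 1, 3 and 4), Cdh5, Flt1, Tek and Tie1 turned to −0.30, −0.45, −0.29 and −0.30. Over all genes 2 were called there. Over all genes, edgeR called 4, DESeq2 38 (1 in the lists, Col1a1), and leaving out a mouse 4 to 7, with 7 without WT 2. The cause was not tested. At an unadjusted p under 0.05, list genes numbered 12, and between 6 (without C2-/- 3) and 24 (without WT 3) with a mouse left out. Same-numbered mice of the 2 genotypes had correlations of 0.267, 0.042, −0.0507 and 0.0212. Those of differently numbered mice ran from −0.225 to 0.202, so the pair numbered 1 had the largest of all. Correlations of so few pairs cannot settle whether the numbers pair the mice. With the replicate block, 4 genes were called over all and 0 of the 10, the p of each ratio was 1.0, and 22 list genes had an unadjusted p under 0.05. With 4 mice per group, the fold intervals of the 10 genes reach from 0.663 to 1.51, and changes within them cannot be shown at this size.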

Other observations

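The gene table carries annotation terms, and 4 vascular ones were read after the data had been seen. Of the 244 genes under angiogenesis, 8 belong to the 10 genes described above (not Cdh5 and Vwf). Of 208 others tested, 108 were higher and 100 lower in C2-/-, 16 and 2 of them at an unadjusted p under 0.05 (8.65% together, beside 5.29% of all tested genes). The 1 gene of them called by edgeR was Emc10, a subunit of the membrane protein complex of the endoplasmic reticulum that is also secreted. Emc10 was at 45.2, 44.7, 42.3 and 41.7 CPM in WT 1 to 4 and at 94.0, 92.6, 79.4 and 90.6 CPM in C2-/- 1 to 4. Every C2-/- mouse lay far above every WT mouse, with a log2 fold change of 1.04 ± 0.10 (SE, n = 4 per group; edgeR adjusted p = 0.00482). Emc10 was one of 4 genes called over all genes, together with Mybpc2, Ahcy and Eif3j1. Its position in the genome relative to the deleted Mybpc2 was not examined here. The cause of its difference was not tested, and the annotation term does not give it.

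Of 164 other tested genes under response to hypoxia, 10 were higher and 3 lower at an unadjusted p under 0.05 (7.93%) and none was called by edgeR. The signalling pathway of the VEGF receptors had 16 other tested genes, of which 4 were higher and 12 lower, with a median log2 fold change of −0.15 and 0 at an unadjusted p under 0.05. The Tie pathway left 1 tested gene beside Tek and Angpt1.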
